A study of Mus musculus with 16 samples.

Results

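10 imprinted genes known for their part in growth before and shortly after birth were followed in the hearts of young mice: Igf2, Igf2r, Grb10, Plagl1, Peg3, Cdkn1c, Mest, Dlk1, Meg3 and H19. They were chosen by name, with earlier results of these data known, and all probes matched to them were taken from each of 16 arrays. 9 of the 10 genes had a probe, with 18 probes among them of 41174 on the array, and H19 is not analysed here. All 9 genes had at least 1 probe that passed the filter on dim probes (16 of the 18 probes did), and they stand among 20056 genes tested. The question was how far these genes fell between 1 and 2 months of age in each genotype, and whether that fall differed between genotypes.

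Imprinted genes are transcribed from 1 parental allele only, with the other allele silenced by marks set in the germ line. Igf2, Plagl1, Peg3, Mest and Dlk1 are transcribed from the paternal allele, and Igf2r, Cdkn1c, Meg3 and H19 from the maternal allele, as is Grb10 in most tissues outside the brain. In rodents many such genes are abundant in fetal and newborn organs, the heart included, and decline while body growth slows after birth.

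The 16 samples were whole hearts of male mice on a C57BL/6 background, 1 array each, in 4 groups of 4: cardioMRKO at 2 months, cardioMRKO at 1 month, MRflox at 2 months and MRflox at 1 month. All mice carried a floxed allele of the mineralocorticoid receptor (MR, gene Nr3c2), a nuclear receptor for aldosterone and glucocorticoids. The cardioMRKO mice carried in addition Cre driven by the αMHC promoter, active in cardiomyocytes, so that other cells of the heart keep the receptor gene. MRflox mice were their littermates without Cre, so the design does not separate receptor loss from Cre itself. In whole-heart RNA, fewer cells of a type and less RNA per cell cannot be told apart.

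A level is the log2 of the processed intensity of a probe minus the log2 of the 75th percentile of its array, so that 0 is the brightness of that percentile; levels of different probes are not comparable with each other. On each array 62.5% to 71.6% of the probes were well above background, no spot was saturated, and the number of arrays limits the precision. The deleted gene Nr3c2 stood at −4.44 to −3.90 in cardioMRKO and −3.89 to −3.44 in MRflox at 2 months, and at −4.79 to −4.53 in cardioMRKO and −4.76 to −4.22 in MRflox at 1 month, with a limma adjusted p of 0.122 at 2 months and 0.988 at 1 month. The 10 cardiomyocyte markers, Myh6 and Tnnt2 among them, were all measured above background. Replicate 4 of MRflox at 2 months stood apart: its spike-in controls read 0.82 lower on the log2 scale than their average over all arrays (−0.82), and its median correlation with its group was 0.968, against up to 0.990 on other arrays. Replicate 3 of cardioMRKO at 2 months had the next lowest spike-in reading, −0.51. Airway and lung epithelium markers were also uneven, with a mean level of −1.06 to 1.73 in cardioMRKO and 1.06 to 4.30 in MRflox at 2 months, and −6.20 to 0.63 in cardioMRKO and −6.46 to 1.77 in MRflox at 1 month. The 4 arrays of a group shared 1 slide, and a group's slide and its mice cannot be told apart.

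The RefSeq promoter tables held 15 windows of 300 bases for 8 of the 10 genes, each running from 250 bases before an annotated start to 50 bases after it (build GRCm38.p6). The 5 windows below are shown because they belong to the genes with the clearest age differences and because 1 of them holds the sequence GGGGCCCC, which the zinc finger protein of another member, Plagl1, is known to bind. Capitals mark matches, on either strand, to 4 searched sequences. These were GGGGCCCC, the sequence GGGCGG called a GC box, the sequence TATAAA called a TATA box, and the CCAAT box, which is searched by the letters of its name.

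Mest window 2, chr6:30737800-30738099, plus strand: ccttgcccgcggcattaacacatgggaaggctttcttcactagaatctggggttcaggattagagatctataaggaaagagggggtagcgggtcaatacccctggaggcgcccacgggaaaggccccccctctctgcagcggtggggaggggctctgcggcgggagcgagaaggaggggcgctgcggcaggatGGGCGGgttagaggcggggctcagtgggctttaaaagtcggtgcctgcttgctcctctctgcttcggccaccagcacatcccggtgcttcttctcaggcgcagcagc
Igf2 window 1, chr7:142657447-142657746, minus strand: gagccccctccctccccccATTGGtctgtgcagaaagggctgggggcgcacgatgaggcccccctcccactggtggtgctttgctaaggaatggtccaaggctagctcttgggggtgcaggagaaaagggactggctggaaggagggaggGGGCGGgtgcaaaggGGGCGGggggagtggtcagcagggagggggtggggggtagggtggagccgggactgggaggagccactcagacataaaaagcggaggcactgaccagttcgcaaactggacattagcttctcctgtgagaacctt
Igf2 window 2, chr7:142658755-142659054, minus strand: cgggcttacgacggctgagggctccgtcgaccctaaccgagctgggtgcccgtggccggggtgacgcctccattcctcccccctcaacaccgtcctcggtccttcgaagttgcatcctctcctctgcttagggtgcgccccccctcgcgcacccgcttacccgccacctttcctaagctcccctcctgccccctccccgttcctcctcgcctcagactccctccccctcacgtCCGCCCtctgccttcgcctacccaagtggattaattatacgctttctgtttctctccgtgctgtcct
Meg3 window 1, chr12:109540746-109541045, plus strand: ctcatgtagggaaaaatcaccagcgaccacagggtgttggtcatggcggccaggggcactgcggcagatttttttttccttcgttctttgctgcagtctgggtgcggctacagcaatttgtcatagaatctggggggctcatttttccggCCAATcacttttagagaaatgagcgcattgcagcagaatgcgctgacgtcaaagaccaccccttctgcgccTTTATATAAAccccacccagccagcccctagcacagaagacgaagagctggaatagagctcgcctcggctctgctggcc
Peg3 window 1, chr7:6730370-6730669, minus strand: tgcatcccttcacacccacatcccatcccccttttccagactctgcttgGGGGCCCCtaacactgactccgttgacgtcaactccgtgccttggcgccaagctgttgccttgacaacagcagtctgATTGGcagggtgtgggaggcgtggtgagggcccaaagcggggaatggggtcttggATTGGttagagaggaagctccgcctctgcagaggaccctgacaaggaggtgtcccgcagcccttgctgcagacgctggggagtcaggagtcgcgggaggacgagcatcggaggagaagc

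Among 32851 promoter windows of the same length, 1.08% held GGGGCCCC, 35.7% a GC box, 13.6% a TATA box and 37.4% a CCAAT box. Of the 15 windows of the imprinted genes, only that of Peg3 held GGGGCCCC, at 201 bases before the start. Meg3 window 1 had overlapping TATA matches, which begin 29 and 25 bases before its start, and a CCAAT box. The Mest window shown and both Igf2 windows shown held a GC box. Windows differed in CG dinucleotides, of which there were 17 in the Mest window shown, 7 and 24 in the Igf2 windows shown, 13 in Meg3 window 1 and 13 in that of Peg3. The median over all windows was 7. Other windows of these genes, not shown, held 8 and 17 (Mest windows 1 and 3), 14 and 2 (Igf2 windows 3 and 4) and 1 (Meg3 window 2). Igf2 windows 3 and 4 and Meg3 window 2 held none of the searched sequences. A match describes letters in a window and not a site in use.

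At 2 months, Mest and Igf2 were lower than at 1 month in both genotypes, and Meg3 was lower in cardioMRKO. In cardioMRKO 3 of the 9 genes fell and none rose (limma, p adjusted by Benjamini-Hochberg over the 20056 genes and below 0.05), where 10.2% of all genes passed in either direction, 4.93% lower and 5.32% higher. In MRflox 2 of the 9 fell and none rose, where 22.7% of all genes passed, 5.91% lower and 16.7% higher. The median difference of the 9 genes was −0.41 in cardioMRKO and −0.29 in MRflox, beside 0.00082 and 0.073 over all 20056 genes. All 4 arrays of 2 months (1 value of 1 gene is missing at 1 month) lay below all arrays of 1 month for 6 of the 9 genes in cardioMRKO, which held for 10.7% of all genes, and for 3 of the 9 in MRflox, which held for 8.09% of all genes. Without replicate 4 of MRflox at 2 months, 5 of the 9 genes fell in cardioMRKO and 4 in MRflox, with Peg3 and Plagl1 added in both. In that fit 14.4% of all genes passed in cardioMRKO (7.36% lower) and 19.8% in MRflox (6.46% lower). Because the members were chosen with earlier results of these data known, the shares describe them and do not test them as a set.

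**Figure D1:**
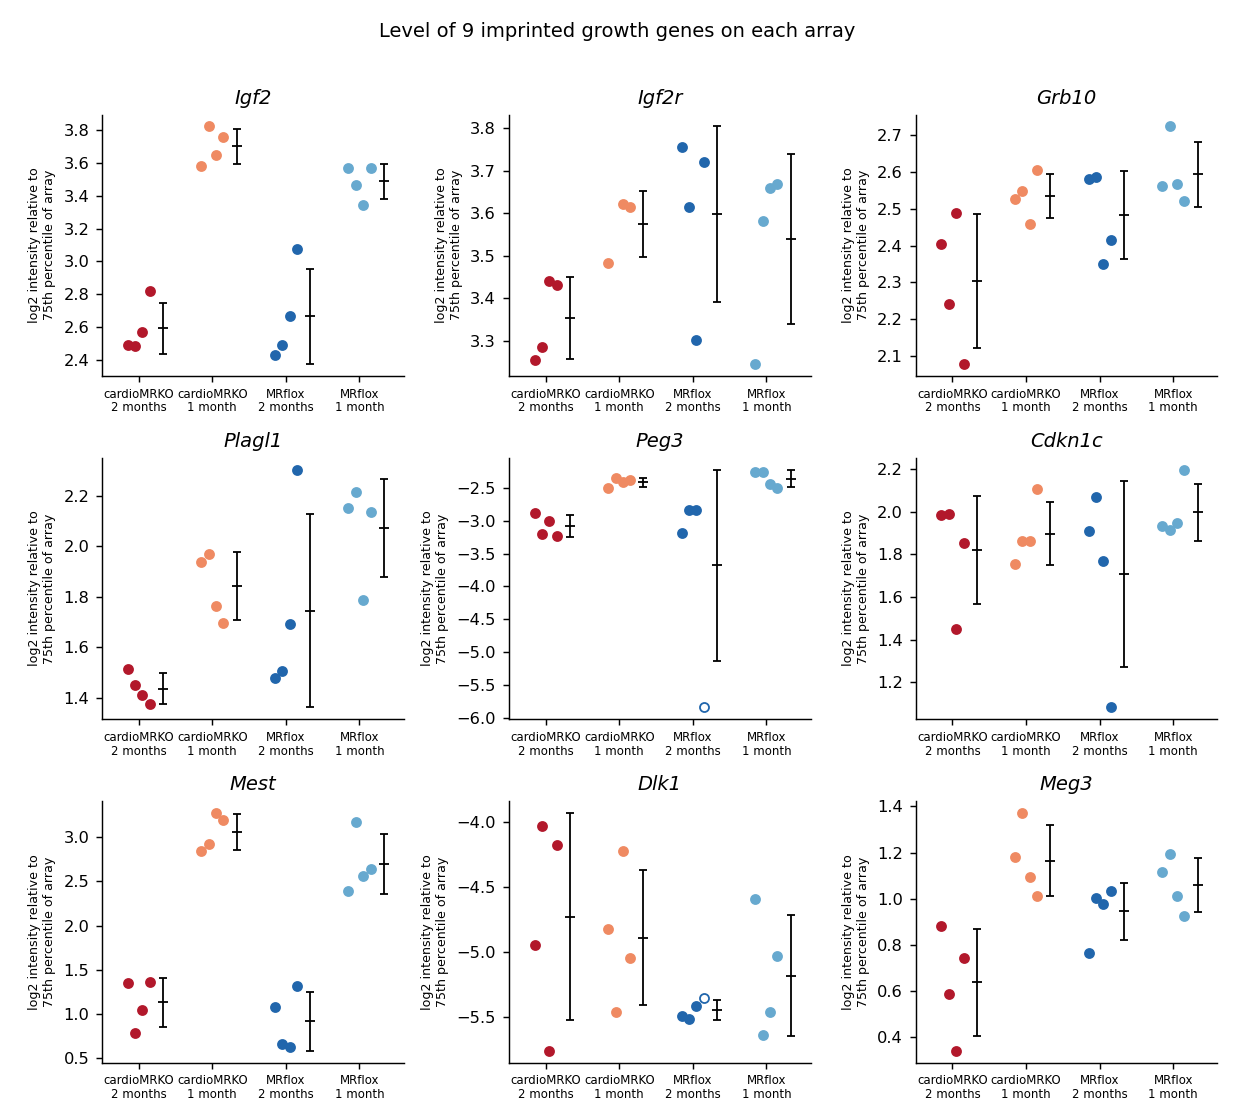
Level (log2 intensity minus that of the array's 75th percentile) of the probe used of each of 9 imprinted growth genes, 1 point per array in order of replicate number, with the mean and SD of each group of 4 (Igf2r has 3 values in cardioMRKO at 1 month) in black; open points were not well above background. Mest and Igf2 have all 2-month points below all 1-month points in both genotypes, and 1 array of MRflox at 2 months lies far below its group for Peg3.

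Igf2, the insulin-like growth factor that drives fetal growth, was measured by 2 probes, 1 of them spotted 10 times on each array. On that probe the level was 2.49, 2.48, 2.57 and 2.82 in cardioMRKO hearts at 2 months, against 3.58, 3.82, 3.65 and 3.76 at 1 month. In MRflox hearts it was 2.43, 2.49, 2.66 and 3.07 at 2 months, against 3.57, 3.47, 3.35 and 3.57 at 1 month. The groups of the 2 ages did not overlap in either genotype, and the highest 2-month array was replicate 4 in both. Igf2 fell by 1.11 on the log2 scale in cardioMRKO (SE 0.13, 95% interval −1.40 to −0.83, limma adjusted p = 0.00033), which left 46.3% of the 1-month intensity. In MRflox it fell by 0.82 (SE 0.13, interval −1.11 to −0.54, limma adjusted p = 0.00082), which left 56.5%. The spots of 1 array varied little beside these differences, with an SD within an array of 0.032 to 0.12. The second probe, with 1 spot per array, gave −1.13 in cardioMRKO and −0.96 in MRflox (limma adjusted p = 0.0017 and 0.0021 among all probes kept), and on it too the ages did not overlap.

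Igf2r, the receptor that binds Igf2 and carries it to the lysosome, did not pass in either genotype. Its level was 3.35 ± 0.10 (SD, n = 4) in cardioMRKO at 2 months and 3.57 ± 0.08 (SD, n = 3) at 1 month, where the spot of replicate 2 was marked as an outlier and left out of the fit. The difference was −0.22 (interval −0.50 to 0.06, limma adjusted p = 0.33). In MRflox it ranged from 3.30 to 3.76 at 2 months and from 3.25 to 3.67 at 1 month, a difference of 0.06 (interval −0.20 to 0.32, limma adjusted p = 0.758). The 2-month arrays lay below the 1-month arrays in cardioMRKO and overlapped them in MRflox.

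Grb10, an adaptor that dampens signalling of the insulin and IGF receptors, had 3 probes. The brightest stood at 2.30 ± 0.18 in cardioMRKO at 2 months and 2.54 ± 0.06 at 1 month, a difference of −0.23 (SD, n = 4 each; limma adjusted p = 0.162). In MRflox it was 2.48 ± 0.12 at 2 months and 2.59 ± 0.09 at 1 month, a difference of −0.11 (SD, n = 4 each; limma adjusted p = 0.455). Ages overlapped in both genotypes on all 3 probes, whose differences ran from −0.41 to −0.06 in cardioMRKO and from −0.42 to −0.11 in MRflox.

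Plagl1 encodes a zinc finger transcription factor that, in mice, acts on other imprinted genes. On its brighter probe the level was 1.51, 1.45, 1.41 and 1.37 in cardioMRKO at 2 months, against 1.94, 1.97, 1.77 and 1.70 at 1 month, with no overlap. MRflox hearts stood at 1.48, 1.51, 1.69 and 2.30 at 2 months, against 2.15, 2.22, 1.79 and 2.14 at 1 month. Here 3 of the 4 arrays of 2 months lay below all of 1 month, and replicate 4 lay above all 4 of those. The difference was −0.41 in cardioMRKO (SE 0.16, limma adjusted p = 0.127) and −0.33 in MRflox (SE 0.16, limma adjusted p = 0.162). Without replicate 4 of MRflox at 2 months, Plagl1 fell by 0.41 in cardioMRKO (limma adjusted p = 0.020) and by 0.51 in MRflox (limma adjusted p = 0.0065). The dimmer Plagl1 probe gave −0.54 in cardioMRKO with no overlap and −0.10 in MRflox with overlap (limma adjusted p = 0.0978 and 0.752 among all probes kept).

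Peg3, another zinc finger protein gene with a part in growth and maternal behaviour in mice, was dim in these hearts. Its level was −2.88, −3.20, −3.01 and −3.24 in cardioMRKO at 2 months, against −2.51, −2.35, −2.41 and −2.38 at 1 month. MRflox hearts stood at −3.19, −2.83, −2.84 and −5.85 at 2 months, against −2.25, −2.25, −2.44 and −2.50 at 1 month. All 2-month arrays lay below all 1-month arrays in both genotypes (exact permutation p = 0.0286 in each, two-sided, the smallest that 4 against 4 allows), and the value of −5.85, from replicate 4, was not well above background. With it in the fit the SE was 0.48, and neither the difference of −0.67 in cardioMRKO (limma adjusted p = 0.432) nor that of −1.32 in MRflox (limma adjusted p = 0.0651) passed. Without that array Peg3 fell by 0.67 in cardioMRKO (limma adjusted p = 0.0017) and by 0.59 in MRflox (limma adjusted p = 0.0040). The second Peg3 probe, fainter still, gave −0.40 and −0.58 with overlap of the ages in both.

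Cdkn1c encodes p57, an inhibitor of cyclin-dependent kinases that holds back cell division. Its 1 probe stood at 1.82 ± 0.25 in cardioMRKO at 2 months and 1.90 ± 0.15 at 1 month, a difference of −0.08 (SD, n = 4 each; limma adjusted p = 0.848). In MRflox it was 1.71 ± 0.44 at 2 months and 2.00 ± 0.13 at 1 month, a difference of −0.29 (SD, n = 4 each; limma adjusted p = 0.294). Ages overlapped in both genotypes, and replicate 4 of MRflox at 2 months was the lowest of all 16 arrays at 1.08. On that array Igf2, Plagl1, Mest and Meg3 were the highest of their group, while Peg3 and Cdkn1c were the lowest.

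Mest, also called Peg1, encodes a protein of the α/β-hydrolase fold that is abundant in embryonic mesoderm. Its level was 1.35, 0.78, 1.04 and 1.36 in cardioMRKO at 2 months, against 2.85, 2.93, 3.27 and 3.19 at 1 month. In MRflox it was 1.08, 0.66, 0.63 and 1.31 at 2 months, against 2.39, 3.17, 2.56 and 2.64 at 1 month. All 8 arrays of 2 months, the highest at 1.36, lay below all 8 arrays of 1 month, the lowest at 2.39. Mest fell by 1.92 on the log2 scale in cardioMRKO (SE 0.20, interval −2.35 to −1.49, limma adjusted p = 0.00012), to 26.4% of the 1-month intensity. In MRflox it fell by 1.77 (SE 0.20, interval −2.20 to −1.34, limma adjusted p = 0.00014), to 29.3%. By the size of the fall Mest was number 46 of the 988 genes that fell in cardioMRKO and number 86 of the 1186 that fell in MRflox, where Igf2 was number 180 and number 476.

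Dlk1, a transmembrane protein of the Notch ligand family that restrains differentiation, was near background. Its level ranged from −5.76 to −4.03 in cardioMRKO at 2 months and from −5.46 to −4.22 at 1 month, a difference of 0.16 (interval −0.59 to 0.91, limma adjusted p = 0.83). In MRflox it ranged from −5.52 to −5.36 at 2 months and from −5.64 to −4.60 at 1 month, a difference of −0.27 (interval −1.01 to 0.48, limma adjusted p = 0.62). The ages overlapped in both, and the sign of the difference in cardioMRKO turned with quantile normalization and with another background correction. The intervals are wide enough to hold falls such as that of Meg3.

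Meg3, a long noncoding RNA made from the maternal copy of the Dlk1 region, had 5 probes, of which 3 passed the filter. On the brightest the level was 0.88, 0.59, 0.34 and 0.74 in cardioMRKO at 2 months, against 1.18, 1.37, 1.10 and 1.01 at 1 month, with no overlap. In MRflox it was 0.76, 1.00, 0.98 and 1.03 at 2 months, against 1.12, 1.19, 1.01 and 0.93 at 1 month, with overlap. Meg3 fell by 0.53 in cardioMRKO (SE 0.12, interval −0.79 to −0.26, limma adjusted p = 0.0144), to 69.5% of the 1-month intensity. In MRflox the difference was −0.12 (interval −0.38 to 0.14, limma adjusted p = 0.524). The call in cardioMRKO was lost without replicate 2 of cardioMRKO at 1 month (−0.46, limma adjusted p = 0.0523) and in a fit of the 8 cardioMRKO arrays alone (limma adjusted p = 0.0536). The second brightest Meg3 probe gave −0.59 in cardioMRKO and 0.02 in MRflox (limma adjusted p = 0.0294 and 0.948 among all probes kept), and the third gave −0.38 and −0.04 with overlap of the ages.

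**Figure D2:**
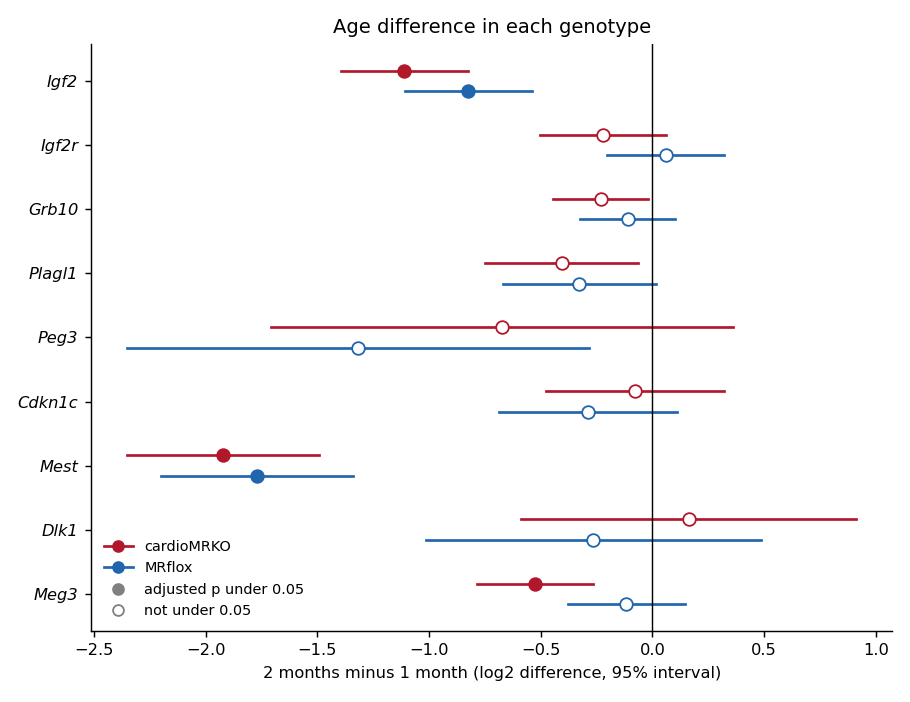
Difference between 2 months and 1 month (log2, horizontal axis) with its 95% interval for 9 imprinted growth genes, cardioMRKO above MRflox within each gene; filled points passed an adjusted p of 0.05 over all genes. Mest (−1.92 and −1.77) and Igf2 (−1.11 and −0.82) are filled in both genotypes, Meg3 is filled in cardioMRKO only, and the intervals of Peg3 and Dlk1 are the widest.

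Whether the fall differed between the genotypes was tested as the difference of the age differences, cardioMRKO minus MRflox. None of the 9 genes passed (limma), beside 0.748% of all genes, and 1 of the 9 had an unadjusted p under 0.05. That gene was Meg3, at −0.41 (SE 0.17, interval −0.78 to −0.04, limma adjusted p = 0.379), so that its passing in cardioMRKO and not in MRflox does not show that the genotypes differ. For Mest the difference of the falls was −0.15 (interval −0.76 to 0.45) and for Igf2 −0.29 (interval −0.69 to 0.12). These intervals leave room for a further fall of Igf2 in cardioMRKO of up to 0.69 on the log2 scale.

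The genotypes were also set against each other at each age. At 2 months none of the 9 genes passed (limma), beside 3.53% of all genes, and at 1 month none passed, beside 0.0947%; 1 gene at 2 months and 0 at 1 month had an unadjusted p under 0.05. Mest stood at 1.14 ± 0.28 in cardioMRKO and 0.92 ± 0.33 in MRflox at 2 months, and at 3.06 ± 0.20 in cardioMRKO and 2.69 ± 0.34 in MRflox at 1 month (SD, n = 4 each). Igf2 stood at 2.59 ± 0.16 in cardioMRKO and 2.66 ± 0.29 in MRflox at 2 months, and at 3.70 ± 0.11 in cardioMRKO and 3.49 ± 0.11 in MRflox at 1 month. At 1 month all 4 cardioMRKO arrays lay above all 4 MRflox arrays for Igf2, by 0.21 on average (limma adjusted p = 0.93). The gene with the unadjusted p under 0.05 was Meg3, −0.31 at 2 months (limma adjusted p = 0.19), and on its second probe all 4 cardioMRKO arrays lay below all 4 of MRflox at 2 months, with a difference of −0.48 (limma adjusted p = 0.11 among all probes kept). These 2 Meg3 probes detect the same RNA and are not independent.

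**Figure D3:**
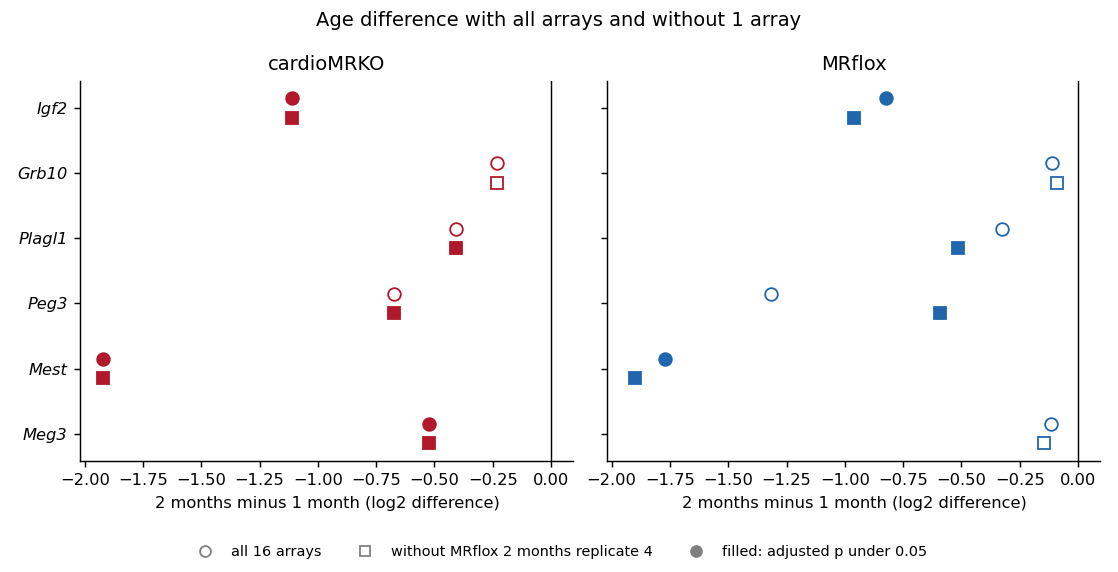
Difference between 2 months and 1 month (log2) of 6 imprinted growth genes with all 16 arrays (circles) and without replicate 4 of MRflox at 2 months (squares), for cardioMRKO on the left and MRflox on the right; filled symbols passed an adjusted p of 0.05. Plagl1 and Peg3 become filled in both genotypes when that array is left out, Peg3 in MRflox moving from −1.32 with all arrays to −0.59, while Mest and Igf2 are filled in both fits.

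Counts for this and the later gene and marker lists stand beside the shares over all genes. Those were 4.93% lower and 5.32% higher in cardioMRKO, and 5.91% lower and 16.7% higher in MRflox. Of 26 other genes of the insulin-like growth factor pathway, 20 were tested. In cardioMRKO 1 fell and 1 rose, near the 10.2% of all genes that passed. In MRflox 0 fell and 1 rose, beside 22.7% of all genes. Their median differences were −0.04 in cardioMRKO and −0.14 in MRflox. Akt1, a kinase downstream of the receptors, fell by 0.33 in cardioMRKO (limma adjusted p = 0.034), and Igf2bp2, which binds Igf2 mRNA, rose by 0.59 (limma adjusted p = 0.041). Ghr, the growth hormone receptor, rose by 0.51 in MRflox (limma adjusted p = 0.027). With 1 array left out, Akt1 passed in 11, Igf2bp2 in 7 and Ghr in 13 of 16 fits.

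Of 59 other imprinted genes listed, 40 were tested: 4 fell and 1 rose in cardioMRKO, and 4 fell and 5 rose in MRflox, with medians of −0.13 and −0.01. 3 fell in both genotypes. Gatm, the first enzyme of creatine synthesis, fell by 0.88 in cardioMRKO (limma adjusted p = 0.0025) and by 0.57 in MRflox (limma adjusted p = 0.014). Rian, a noncoding RNA that is the next tested gene after Meg3, fell by 1.16 and 1.14 (limma adjusted p = 0.0091 and 0.0044), with 3 of 4 arrays at 2 months above background in each genotype. Sfmbt2, a Polycomb group gene, was above background on 1 of 4 cardioMRKO arrays at 2 months and on all 4 at 1 month, with a fitted difference of −0.84 whose size is therefore not exact. In MRflox it was above background on 0 of 4 arrays at 2 months and on all 4 at 1 month (limma adjusted p = 0.00013). With the 2-month arrays raised to the lowest level read above background, it was 1.96-fold lower, which is not a firm bound. The filter on dim probes kept Rian and Sfmbt2 through 1-month groups only, where both were higher. Their limma p-values are therefore no independent support for a fall. With normexp background correction Sfmbt2 no longer passed in either genotype (limma adjusted p = 0.25 in cardioMRKO and 0.827 in MRflox), nor did Rian in MRflox (0.283), and with the airway level as a covariate Gatm no longer passed in MRflox (0.229). Slc22a3, a cation transporter near Igf2r, had a fitted difference of 1.24 in cardioMRKO, where 4 of 4 arrays at 2 months and 1 of 4 at 1 month were above background, and it did not pass there with normexp (limma adjusted p = 0.178). In MRflox, with 3 of 4 arrays above background at each age, the difference was 0.75. The filter kept Slc22a3 through cardioMRKO at 2 months only, where it was highest, so its passing is no independent support for a rise. Kcnk9 (1.76), Ascl2 (1.68), Slc22a18 (1.02) and Zrsr1 (0.32) rose in MRflox. Cd81 in cardioMRKO (−0.27) and Commd1 in MRflox (−0.34) were the remaining genes that fell. With 1 array left out, Cd81 passed in 4 and Commd1 in 10 of 16 fits. Commd1 did not pass with the mean of its probes (limma adjusted p = 0.747). With the airway level as a covariate, 1 imprinted gene of this list fell and 0 rose in MRflox. In that fit 6.61% of all genes passed in MRflox, 1.7% lower, against 22.7% and 5.91% without the covariate.

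Of 18 other genes of juvenile growth, 15 were tested, and 3 fell in cardioMRKO and 4 in MRflox, none rising, with medians of −0.51 and −0.45. Smo, the transducer of Hedgehog signals, fell by 0.51 and 0.45, Mycn, a transcription factor of proliferating cells, by 1.16 and 0.67, and the secreted growth factor Ptn by 0.81 and 0.85. Sox11, a transcription factor of the embryo, fell by 1.25 in MRflox, above background on 3 of 4 arrays at 2 months. With 1 array left out, Mycn passed in 4 of 16 fits in MRflox, Ptn in 8 of 16 in cardioMRKO and Sox11 in 11 of 16 in MRflox. Of 30 cell cycle genes 29 were tested, and 25 fell in cardioMRKO and 23 in MRflox, 23 of them in both, with medians of −1.64 and −1.46. Plk1, a kinase of mitosis, fell by 2.00 in cardioMRKO and by 1.82 in MRflox. With the airway level as a covariate, 0 of the 15 juvenile growth genes and 12 of the 29 cell cycle genes fell in MRflox. In that fit 1.7% of all genes were called lower in MRflox, against 5.91% without the covariate. The mean airway level in MRflox was −6.46 to 1.77 at 1 month and 1.06 to 4.30 at 2 months, so age and covariate are hard to separate. The part of airway tissue in the lost calls was not tested.

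**Figure D4:**
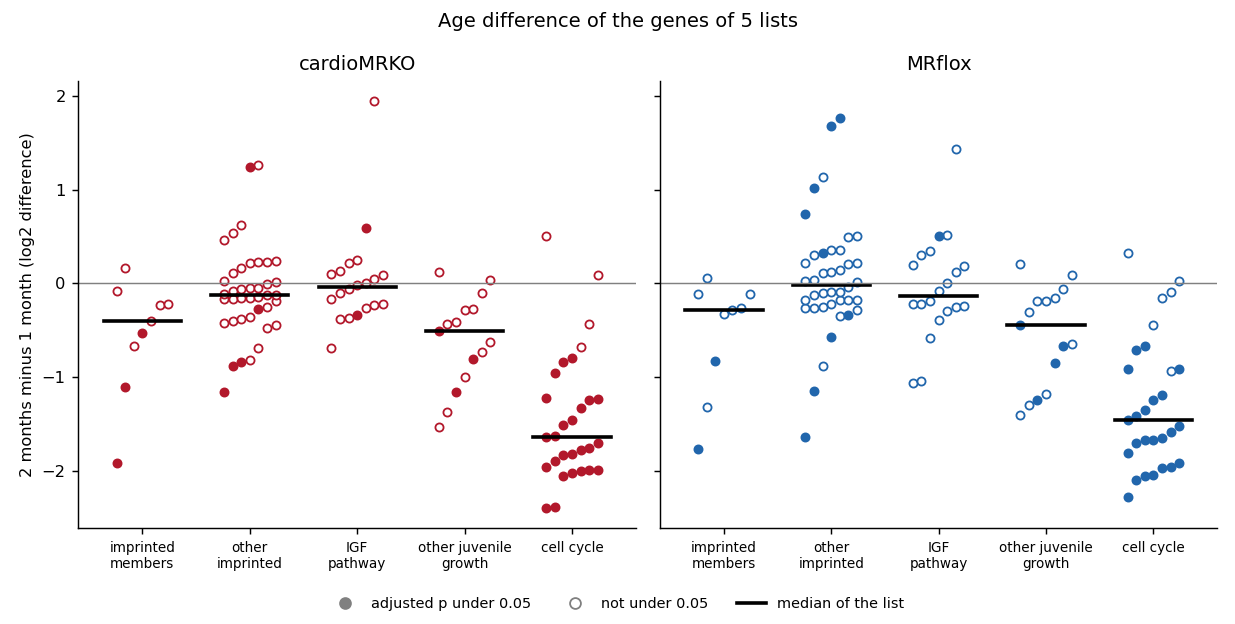
Difference between 2 months and 1 month (log2, vertical axis) of the tested genes of 5 lists, cardioMRKO on the left and MRflox on the right, 1 point per gene, filled where the adjusted p was under 0.05; black lines are list medians. The cell cycle genes lie lowest (medians −1.64 and −1.46), the imprinted members spread from Mest (−1.92 and −1.77) to about 0, and the IGF pathway is centred near 0.

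Markers of heart cell types were read beside the members. Of 12 fibroblast markers 6 fell in cardioMRKO and 7 in MRflox, and their summed level (log2) was 7.69 to 8.27 in cardioMRKO at 2 months against 8.36 to 8.71 at 1 month, and 8.10 to 8.17 in MRflox at 2 months against 8.43 to 8.58 at 1 month. The 2 brightest of them were Dcn and Col3a1. Of 9 smooth muscle and pericyte markers 2 fell in cardioMRKO and 3 in MRflox, and their summed level was 6.52 to 6.91 in cardioMRKO at 2 months against 7.15 to 7.34 at 1 month, and 6.62 to 6.74 in MRflox at 2 months against 7.12 to 7.33 at 1 month. The 2 brightest smooth muscle and pericyte markers were Acta2, which fell in both genotypes, and Kcnj8. Both sums were lower at 2 months without overlap in both genotypes, as were Mest and Igf2. The mean log2 level of the smooth muscle and pericyte markers, unlike their sum, overlapped in cardioMRKO. Its highest array there was 3.046 at 2 months and 3.042 at 1 month. In MRflox it was at most 2.911 at 2 months against at least 2.914 at 1 month, without overlap. The part of these cells in the fall of Mest and Igf2 was not tested. Of 10 cardiomyocyte markers 0 passed in either genotype, with 0 and 2 at an unadjusted p under 0.05. Of 6 airway and lung markers 5 passed as higher in MRflox and 0 passed in cardioMRKO. Their median difference was 7.14 in MRflox and 3.24 in cardioMRKO, with 0 of the 6 below 0 in either genotype. With the airway level as a covariate, Mest and Igf2 still passed in both genotypes, Mest at −1.89 in cardioMRKO (limma adjusted p = 0.00073) and −1.71 in MRflox (limma adjusted p = 0.0087). Igf2 then stood at −1.17 in cardioMRKO (limma adjusted p = 0.00089) and −0.96 in MRflox (limma adjusted p = 0.014).

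In cardioMRKO, where Meg3 also fell, the summed endothelial level was at most 6.76 on the 2-month arrays against 6.79 to 6.93 at 1 month, and the macrophage sum 4.57 to 4.85 at 2 months against 4.91 to 5.01 at 1 month, both without overlap. The mean log2 level of the macrophage markers did overlap there, at 0.87 to 1.17 at 2 months against 1.14 to 1.24 at 1 month. In MRflox the endothelial sum was 6.72 to 6.97 at 2 months against 6.78 to 6.93 at 1 month, with overlap. The macrophage sum there was 4.75 to 5.10 at 2 months against 4.64 to 5.14 at 1 month, also with overlap. The mean log2 level of the endothelial markers, unlike their sum, was lower without overlap in both genotypes. It was 2.57 to 2.77 at 2 months against 2.85 to 3.03 at 1 month in cardioMRKO. For MRflox it was 2.62 to 2.88 at 2 months against 2.89 to 3.09 at 1 month. In cardioMRKO 2 of 10 endothelial, 2 of 10 macrophage and 1 of 6 epicardial markers were lower, and 4 of 10 lymphocyte and 1 of 8 adipocyte markers were higher. In MRflox 1 endothelial marker was lower, and 1 macrophage, 3 lymphocyte, 1 adipocyte, 2 epicardial and 1 of 6 neural markers were higher. None of 4 erythroid markers passed in either genotype. The part of these cells in the members' values was not tested.

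The genes whose level followed each fallen member most closely over the 16 arrays were also listed, as a description that pools both ages and both genotypes. For Mest they were Atp8b2 (Pearson r 0.972), Col6a3 (0.961) and Col16a1 (0.960), a phospholipid transport protein and 2 collagen genes. For Igf2 they were Ppic (0.974), Gxylt2 (0.959) and Atp8b2 (0.958). For Meg3 they were Mfsd10 (0.892), Nrm (0.882) and Slbp (0.879). With each array's group mean removed, the same pairs gave 0.62 to 0.66 for Mest, 0.55 to 0.80 for Igf2 and 0.68 to 0.75 for Meg3. The pairs were picked among 14669 genes by their r over these same arrays. The values within groups are therefore high partly by that choice and are no independent check.

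The nearest genes on the chromosome were read beside the members. Up to 3 tested genes on each side of each of the 10 genes, 48 different genes other than members, were taken in the order of the GRCm38.p6 annotation, a set chosen after the members' values were seen. Of these, 5 fell and 2 rose in cardioMRKO, and 4 fell and 9 rose in MRflox. Over all genes 4.93% fell and 5.32% rose in cardioMRKO, and 5.91% fell and 16.7% rose in MRflox. The 9 rises were near that last share. Copg2, the next tested gene after Mest and a coat protein of Golgi vesicles, gave −0.25 and −0.27 (limma adjusted p = 0.152 and 0.091), and Cep41 on the other side gave −0.04 and −0.12. Beyond Cep41, Cpa1 gave −1.50 and −1.20 (limma adjusted p = 0.00091 and 0.0016). Cpa4, next to it, gave 1.11 and 2.02 (limma adjusted p = 0.0075 and 0.00014). The tested genes beside Igf2, Ins2 and Mrpl23, did not pass in either genotype (0.46 and 0.49, and −0.15 and −0.04). Beyond Ins2, Ascl2 gave −0.42 in cardioMRKO and 1.68 in MRflox (limma adjusted p = 0.579 and 0.0081). In the region of Dlk1 and Meg3 the maternal noncoding RNAs Meg3 and Rian were lower in cardioMRKO, while Dlk1 at 0.16 and Dio3 at 0.23 did not pass. Rian was lower in MRflox too, at −1.14 (limma adjusted p = 0.0044). There Meg3 at −0.12, Dlk1 at −0.27 and Dio3 at −0.25 did not pass. The filter had kept Rian through 1-month groups only, so its passing is no independent support for a fall.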

How the data were processed

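Cy3-labelled whole-heart RNA of 16 mice was measured on 1-colour Agilent arrays, 1 array a mouse. The deposited values are processed intensities that, per the file headers, Agilent Feature Extraction 12.0.0.7 subtracted for background within each array, while version 9.5 is the one in the submitters' processing notes. The deposited value table held the same intensities. Here each log2 intensity was set against the 75th percentile of its array over the 41174 non-control probes, outlier spots were left out and spots of a probe averaged. A probe was kept where every array of some group read it well above background and no group missed more than 1 value (27278 probes), and the brightest kept probe stood for each of 20056 genes. Probes were named by accession through RefSeq (28223 of 41174 had a symbol), and no probe of H19 was matched. limma 3.58.1 in R 4.3.3 fitted 4 group means with 12 residual degrees of freedom, and p-values were adjusted by Benjamini-Hochberg over all genes of a comparison. Exact permutation tests were two-sided. P-values measure the spread between these animals only. In data simulated for the MRflox age comparison over 19731 genes, the fit found 15, 31, 38 and 41 of 50 genes changed by 0.5, 1, 1.5 and 2 on the log2 scale, with 6 false calls. The simulation changed only 50 genes at each size, with independent noise and no slide effect, whereas 22.7% of all genes passed in MRflox. Its counts therefore do not give the recovery or the false calls of the fit to the measured data. The members and gene lists were chosen with earlier results of these data known. Of the gene lists, genes that passed an age comparison were named, up to 4 per direction by smallest p; Slc22a3 in MRflox, past that limit, was added after its value was seen. Alternatives were other normalizations, background correction by normexp with an offset of 50 on median signals, filters, probe choices, weights, an airway covariate, a replicate block and single arrays left out.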

Additional observations from a re-analysis of the deposited data

Results flagged for a closer look

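In 35 groups of 4 arrays, the highest or lowest array was set against the rest by Dixon's test at the 95% level, which flags about 1 in 20 groups by chance. 2 values stood out. Peg3 stood at −5.85 on replicate 4 of MRflox at 2 months, where the other arrays of the group lay between −3.19 and −2.83 (gap over range 0.881). Cdkn1c stood at 2.20 on replicate 4 of MRflox at 1 month, where the others lay between 1.92 and 1.95 (gap over range 0.891).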

How the results depend on the processing

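Each value was recomputed under 28 settings, 16 of which left out 1 array. Of 1241 recomputed values 1179 kept their direction and their side of the threshold, 19 newly passed, 2 no longer passed and 41 changed sign, none of which had passed. Mest and Igf2 passed in both genotypes under all 28, Mest between −2.04 and −1.77 in cardioMRKO and between −1.94 and −1.61 in MRflox, and Igf2 between −1.19 and −1.05 and between −0.96 and −0.75. The number of members called was 6 in cardioMRKO and 4 in MRflox with array weights, where 26.5% and 32.5% of all genes passed, and 6 and 4 when both low spike-in arrays were dropped, where 19.8% and 25.7% of all genes passed. With 1 array left out it ranged from 2 to 5 in cardioMRKO and from 2 to 4 in MRflox, and 0 members passed in the other comparisons under any setting. Grb10 passed in cardioMRKO with array weights (−0.26, limma adjusted p = 0.027), Plagl1 and Peg3 in a fit of the 8 cardioMRKO arrays (limma adjusted p = 0.038 and 0.011), and Peg3 in MRflox with quantile normalization (−1.42, limma adjusted p = 0.038). The cause of these shifts was not tested.

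The samples were not treated as paired by replicate number, which was also the position on the slide. With group means removed, same-numbered arrays of different groups gave correlations of −0.31 to 0.36 (median 0.060), with 10 of 24 over 0.1. Differently numbered arrays gave −0.40 to 0.40 (median −0.015), with 13 of 72 over 0.1. A shared effect of the number was not tested. With the replicate number as a block, 3 members passed in cardioMRKO and 2 in MRflox, 0 in the other comparisons, and 2302 and 4712 of all genes, against 2055 and 4543 without it. Calls over all genes then numbered 491 against 150 for the difference of the age differences. For the genotypes at 2 months they numbered 1052 against 707. Over all genes, calls in cardioMRKO numbered 5307 with array weights, 3978 without the arrays of low spike-in signal, 1250 with normexp (438 higher, 812 lower, against 1067 and 988), and those in MRflox 1325 with the airway covariate. With quantile normalization 2541 genes were higher and 1591 lower in MRflox, against 3357 and 1186.

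Signs turned as follows for values that passed in neither fit. With quantile normalization the age difference was −0.0059 for Dlk1 in cardioMRKO and −0.020 for Igf2r in MRflox, and the genotype difference of Igf2 at 2 months was 0.035. With normexp the age difference was −0.021 for Dlk1 in cardioMRKO, −0.15 for Igf2r and 0.12 for Dlk1 in MRflox, with a difference of the age differences of −0.14 for Dlk1, and the genotype difference was −0.035 for Igf2r at 1 month and −0.018 for Peg3 and −0.060 for Dlk1 at 2 months. With array weights the age difference was 0.033 for Cdkn1c in cardioMRKO and −0.061 for Igf2r in MRflox, the difference of the age differences 0.019 for Plagl1 and −0.13 for Peg3, and the genotype difference −0.027 for Igf2r at 1 month and −0.14 for Peg3 at 2 months. With the mean of a gene's probes, Grb10 gave 0.040 for the difference of the age differences, 0.048 at 1 month and 0.088 at 2 months, and Igf2 0.0045 at 2 months. With the airway covariate Plagl1 gave 0.032 for the difference of the age differences and Peg3 0.11 at 1 month. Without the arrays of low spike-in signal the age difference of Cdkn1c in cardioMRKO was 0.045, the difference of the age differences 0.0098 for Mest, 0.12 for Plagl1 and −0.10 for Peg3, and the genotype difference at 2 months 0.071 for Igf2 and −0.16 for Peg3. With the deposited value table Igf2r gave −0.062 at 1 month.

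With 1 array left out, the age difference ranged from −0.071 to 0.51 for Dlk1 and from −0.13 to 0.045 for Cdkn1c in cardioMRKO, and from −0.038 to 0.16 for Igf2r in MRflox. The difference of the age differences ranged from −0.17 to 0.11 for Plagl1 and from −0.080 to 0.93 for Peg3. The genotype difference ranged from −0.063 to 0.080 for Igf2r at 1 month, and at 2 months from −0.15 to 0.064 for Igf2, from −0.098 to 0.23 for Cdkn1c and from −0.13 to 0.87 for Peg3. Signal over background limits Dlk1, Peg3 and the fainter Meg3 probes.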
